A study of Mus musculus with 11 samples.

Results

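The keratin-associated proteins of the hair are a family of small structural proteins, here taken as every row of the deposited RPKM table (reads scaled to gene length and to the mapped reads of the library) whose symbol is Krtap followed by a digit. The rule gave 54 of the 24974 rows, in 26 numbered subfamilies. The study sequenced ribosome-depleted total RNA from mouse back skin and skin tumors after treatment with the carcinogen DMBA (7,12-dimethylbenz[a]anthracene, a polycyclic hydrocarbon painted on the skin). Every animal, of either genotype, had received 3 topical doses of 100 µg DMBA in 200 µl, 1 week apart, and tissue was collected at week 31. The groups were 5 tumors of DLX3cKO mice (KO tumors), 3 unaffected whole skins of DLX3cKO mice (KO skins) and 3 skins of wild-type mice given the same DMBA (WT skins). DLX3cKO stands for a conditional knockout of Dlx3, a homeobox transcription factor; the Cre driver and the deleted exons were not given in the sources used here. Neither genotype had an untreated group among these samples, and the labels do not tie tumors and skins to animals, so the p-values below measure only the spread between these samples.

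Keratin-associated proteins fill the space between the keratin filaments of the hair shaft and are bound to them and to each other through disulfide bridges. They are made late in the differentiation of shaft cells, in the cortex and cuticle of growing follicles, and are not made by resting follicles or by the epidermis between follicles. The family is divided by composition into high-sulfur, ultrahigh-sulfur and glycine-tyrosine proteins, and its genes are short and lie side by side in clusters. Hoxc13, a homeobox factor of the hair matrix, is known in mouse as a regulator of hair keratin and Krtap genes, and Dlx3 is known to be needed for hair follicle differentiation.

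All 54 members were found in the GENCODE annotation of the mm10 genome (GRCm38). There were 22 on chromosome 11, 23 on chromosome 16, 5 on chromosome 7, 3 on chromosome 10 and 1 on chromosome 1. Subfamilies were classed by the median composition of their annotated proteins: ultrahigh-sulfur above 30% cysteine, glycine-tyrosine at 35% or more glycine plus tyrosine, and high-sulfur otherwise. That placed 21 members as high-sulfur, 20 as ultrahigh-sulfur and 13 as glycine-tyrosine. Within the ultrahigh-sulfur class Krtap28-13 had 42.8% cysteine and Krtap5-5 had 41.5%, while Krtap9-3 had 27.2%. Within the glycine-tyrosine class Krtap6-1 had 69.2% glycine plus tyrosine and Krtap8-1 had 47.5%. The rule works on subfamily numbers, so Krtap16-3 stood with Krtap16-1 as high-sulfur although its own protein held 59.3% glycine plus tyrosine. Krtap7-1, usually counted as a glycine-tyrosine protein, held 29.9% and also stood as high-sulfur.

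Promoters of 49 of the 54 members were matched in the RefSeq promoter table (GRCm38.p6), each running from 250 bases before the annotated start to 50 bases after it. They are shown for 4 members that differed in their levels in KO skins. Krtap8-1 (7.81%) and Krtap11-1 (11.3%) were among the members with the highest share of their WT skin level. Krtap16-3 (0.410%) and Krtap4-6 (0.253%) were in the lower part of the ranking, where other members lay lower still. All 4 lie on the minus strand, and the sequences are written 5′ to 3′ along the gene with TATAAA, the TATA box that places the start of transcription, in capitals.
Krtap8-1, chr16:89487903-89488202: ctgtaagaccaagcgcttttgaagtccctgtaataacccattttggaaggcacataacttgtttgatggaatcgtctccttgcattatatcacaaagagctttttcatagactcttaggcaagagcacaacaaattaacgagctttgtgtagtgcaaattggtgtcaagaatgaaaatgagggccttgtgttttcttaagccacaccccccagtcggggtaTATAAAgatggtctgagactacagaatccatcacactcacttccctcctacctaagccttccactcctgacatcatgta
Krtap11-1, chr16:89571134-89571433: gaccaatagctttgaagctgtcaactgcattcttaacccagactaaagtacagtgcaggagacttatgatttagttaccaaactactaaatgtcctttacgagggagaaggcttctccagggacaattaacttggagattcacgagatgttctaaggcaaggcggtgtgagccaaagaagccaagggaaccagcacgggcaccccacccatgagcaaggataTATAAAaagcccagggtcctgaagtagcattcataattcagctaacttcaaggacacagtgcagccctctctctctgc
Krtap16-3, chr16:88962824-88963123: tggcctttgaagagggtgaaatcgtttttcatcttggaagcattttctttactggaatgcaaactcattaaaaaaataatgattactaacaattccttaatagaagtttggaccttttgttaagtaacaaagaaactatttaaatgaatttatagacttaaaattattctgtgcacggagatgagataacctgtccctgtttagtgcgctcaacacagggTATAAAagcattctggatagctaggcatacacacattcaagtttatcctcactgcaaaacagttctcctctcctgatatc
Krtap4-6, chr11:99665911-99666210: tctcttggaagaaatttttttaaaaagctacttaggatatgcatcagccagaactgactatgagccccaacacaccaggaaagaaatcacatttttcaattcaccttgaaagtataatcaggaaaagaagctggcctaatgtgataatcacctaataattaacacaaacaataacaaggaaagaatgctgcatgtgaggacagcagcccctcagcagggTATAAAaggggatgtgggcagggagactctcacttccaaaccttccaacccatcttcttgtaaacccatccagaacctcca

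TATAAA began 29 bases before the annotated start in Krtap8-1, 28 in Krtap11-1, 30 in Krtap16-3 and 31 in Krtap4-6. Searched on both strands, TATAAA was present in 40 of the 49 Krtap promoters (81.6%), against 13.6% of all 32851 promoters of the same length in the table. On the gene's own strand and between 35 and 25 bases before the start it was present in 26 of 49 (53.1%), against 1.75% of all promoters. CTTTGAA, the core bound by Lef and Tcf factors, was present in 9 of 49 Krtap promoters (18.4%), against 5.14% of all, and 8 of these 9 were among the 18 high-sulfur promoters, with 1 of 13 glycine-tyrosine and 0 of 18 ultrahigh-sulfur promoters. TAATTG, a core of homeodomain sites of the Dlx type, was present in 14 of 49 (28.6%), against 8.0% of all. Of 2 cores of the posterior Hox type, TTTACGA was present in 1 of 49 (2.04%, in Krtap11-1), against 0.597% of all, and TTTATTG in 0 of 49, against 4.60% of all. The motifs were searched on both strands and counted separately whether or not they overlapped, members of 1 subfamily share sequence, and a match of letters is no measurement of binding.

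**Figure D1:**
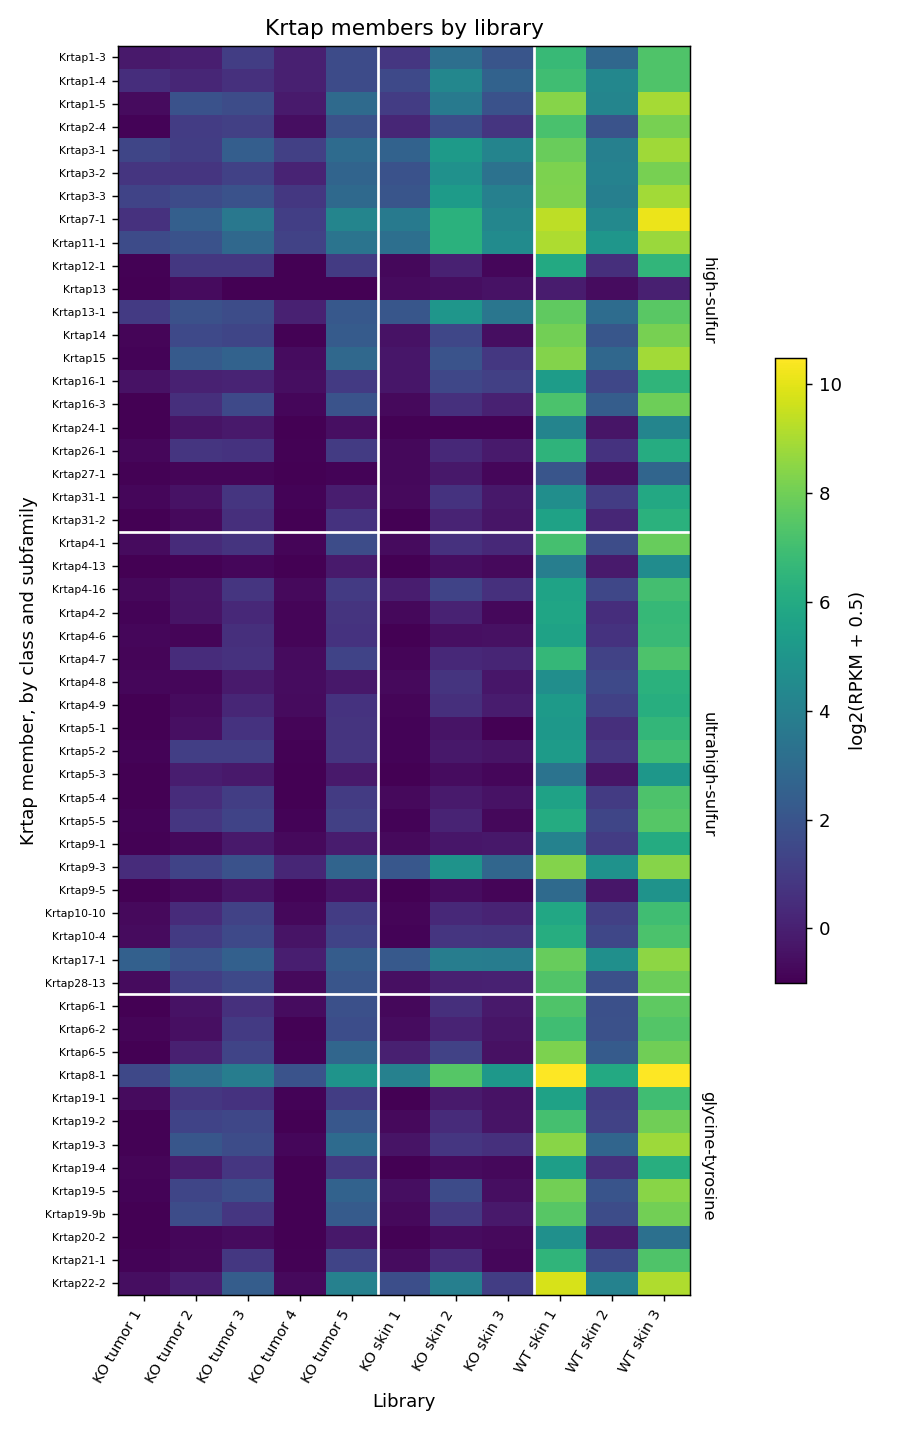
Level of each of the 54 Krtap members (rows, by class and subfamily) in each of the 11 libraries (columns: KO tumors, KO skins, WT skins), as log2(RPKM + 0.5) on the colour scale. The columns of WT skins 1 and 3 are bright in all classes, the other 9 columns are dark, and Krtap8-1, Krtap7-1, Krtap11-1 and the Krtap3 rows stand out within the KO skin columns.

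Some properties of the libraries bear on every value of the family. Dlx3 had 4.16, 7.61, 7.52, 1.93 and 1.34 RPKM in KO tumors 1 to 5 and 4.08, 8.88 and 6.72 RPKM in KO skins 1 to 3, against 49.9, 7.35 and 89.9 RPKM in WT skins 1 to 3. The second wild-type library therefore had Dlx3 at the level of the KO libraries, and it is called the library labelled WT skin 2 throughout. Whether it was mixed up or mixed with another library was not tested, and the WT skin means, SDs and percentages below include it as labelled unless they name WT skins 1 and 3. The female-specific Xist RNA and the Y-linked Ddx3y split the libraries in another way. Xist was high in KO tumors 1, 2 and 5, in all KO skins and in the library labelled WT skin 2 (10.1 to 22.0 RPKM), and Ddx3y was high in KO tumors 3 and 4 (9.22 and 8.54 RPKM) and WT skins 1 and 3 (15.7 and 11.1 RPKM). Among the libraries high in Xist, Ddx3y stood at 0.687 RPKM in KO tumor 5 and 0.492 RPKM in the library labelled WT skin 2, against 0.0209 to 0.157 RPKM in the other 5. Among those high in Ddx3y, Xist stood at 0.616 and 0.0941 RPKM in KO tumors 3 and 4 and at 0.466 and 0.149 RPKM in WT skins 1 and 3. All 3 WT skins, KO skins 2 and 3 and KO tumor 5 came from the first of 2 sequencing runs and the other 5 libraries from the second, with 29265111 to 75707445 alignments per library. Rn45s, the ribosomal RNA precursor, stood at 11833 RPKM in KO tumor 5 and 10021 RPKM in WT skin 1, and at 612 to 3242 RPKM in the other 9. Epidermal keratins and cornified envelope genes were abundant in every library (summed RPKM 5147 to 50537), so the labelled tissue had its defining markers, and skeletal muscle genes summed to 19.7 to 391 RPKM in KO tumors, 3758 to 8229.6 in KO skins and 6413 to 12055 in WT skins.

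The family was far more abundant in WT skins 1 and 3 than in any other library. Summed over the 54 members, the level was 22.3, 73.1, 119, 16.3 and 209 RPKM in KO tumors 1 to 5 and 75.1, 611 and 181 RPKM in KO skins 1 to 3, against 9536, 369 and 12528 RPKM in WT skins 1 to 3. The group means were 87.9 ± 79.5 RPKM in KO tumors (SD, n = 5), 289 ± 284 RPKM in KO skins (n = 3) and 7478 ± 6336 RPKM in WT skins (n = 3). Every KO tumor lay below all WT skins, while KO skin 2 lay above the library labelled WT skin 2, so KO and WT skins overlapped in the sum. In whole tissue, fewer hair-forming cells and less RNA per cell cannot be told apart. As a share of all summed RPKM the family took 0.00319% to 0.0596% in KO tumors and 0.0170% to 0.129% in KO skins, against 2.26%, 0.0858% and 2.97% in WT skins 1 to 3. Members at 1 RPKM or more numbered 8, 24, 39, 5 and 44 in KO tumors, 13, 27 and 18 in KO skins and 53, 42 and 53 in WT skins. Of the 594 values, 24 were listed at 0, of which 20 were in KO tumors and 4 in KO skin 1.

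**Figure D2:**
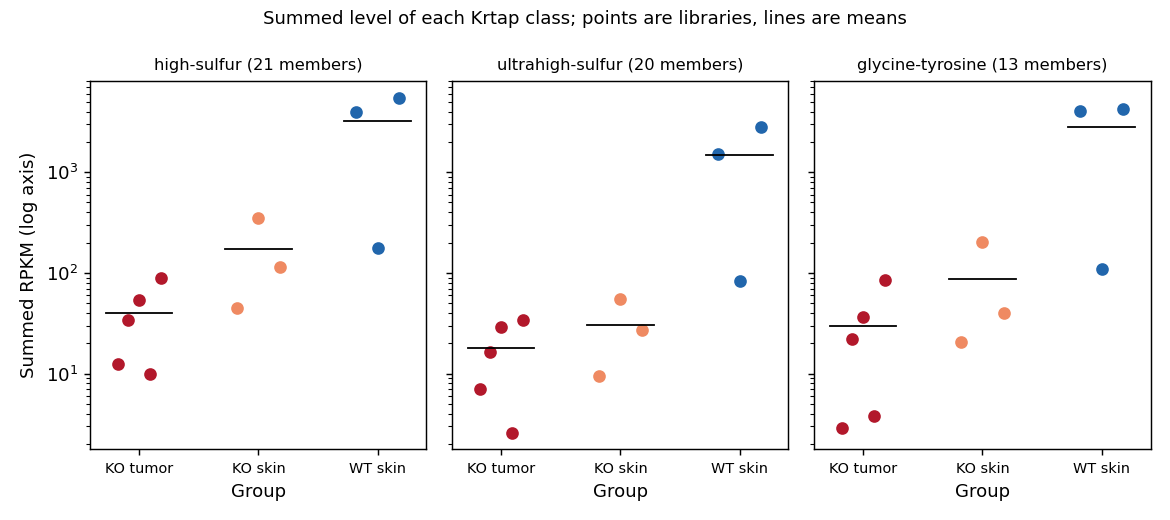
Summed RPKM of each Krtap class (log axis) in KO tumors, KO skins and WT skins; points are libraries and lines are group means. In each class 1 WT skin lies near the KO skins and 2 lie far above every other library.

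In the mean of the summed RPKM, each class showed the same order of groups. Member by member the classes differed. The KO tumor mean exceeded the KO skin mean in 11 of 13 glycine-tyrosine, 14 of 20 ultrahigh-sulfur and 7 of 21 high-sulfur members. KO skins 1 to 3 had sums of 20.4, 202 and 39.6 RPKM for glycine-tyrosine and 9.46, 55.2 and 27.02 RPKM for ultrahigh-sulfur members. The KO skin means of the sums thus leaned on KO skin 2. High-sulfur members summed to 40.0 ± 33.1 RPKM in KO tumors (SD, n = 5) and 171 ± 162 RPKM in KO skins (n = 3), against 3203 ± 2727 RPKM in WT skins (n = 3). Ultrahigh-sulfur members summed to 17.9 ± 13.7 RPKM in KO tumors and 30.6 ± 23.1 RPKM in KO skins, against 1471 ± 1360 RPKM in WT skins. Glycine-tyrosine members summed to 30.04 ± 33.7 RPKM in KO tumors and 87.2 ± 99.5 RPKM in KO skins, against 2804 ± 2336 RPKM in WT skins. The SDs were close to the means in every group, so the spread between libraries of 1 group was large beside the level. The makeup of the family differed less: ultrahigh-sulfur members made up 15.96% to 31.7% of the Krtap sum in KO tumors and 9.03% to 14.9% in KO skins, against 16.05% to 22.4% in WT skins, and KO and WT skins did not overlap in that share, which was not tested.

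Among glycine-tyrosine members, Krtap8-1, known in sheep as a protein of the wool cortex, had the highest mean of the whole family. It had 2.34, 8.44, 14.1, 3.37 and 29.8 RPKM in KO tumors 1 to 5 and 15.99, 175 and 34.8 RPKM in KO skins 1 to 3, against 1431, 61.8 and 1404 RPKM in WT skins 1 to 3. KO tumors lay below all WT skins, whereas KO skin 2 exceeded the library labelled WT skin 2. Krtap8-1 alone made up 10.5% to 20.8% of the Krtap sum in KO tumors, 19.2% to 28.7% in KO skins and 11.2% to 16.7% in WT skins. Krtap22-2 had 0.1701, 0.485, 4.79, 0.109 and 16.1 RPKM in KO tumors and 2.86, 15.1 and 1.63 RPKM in KO skins, against 892, 16.4 and 547 RPKM in WT skins. KO skin 2 and KO tumor 5 lay just below the library labelled WT skin 2 in this gene, and no KO library lay above it. Krtap19-3, the most abundant of the 6 Krtap19 members, had 0.0307, 3.69, 2.73, 0.07902 and 7.48 RPKM in KO tumors and 0.269, 1.29 and 0.997 RPKM in KO skins, against 349.8, 6.25 and 444 RPKM in WT skins. Krtap6-5 had under 0.0001, 0.514, 2.06, 0.0362 and 6.36 RPKM in KO tumors and 0.499, 1.89 and 0.219 RPKM in KO skins, against 300.0, 4.44 and 253 RPKM in WT skins. In both genes KO skins lay below every WT skin, while KO tumor 5 exceeded the library labelled WT skin 2. Krtap21-1 had 0.0432, 0.0987, 1.34, 0.0278 and 2.03 RPKM in KO tumors and 0.152, 0.837 and 0.0838 RPKM in KO skins, against 92.2, 2.49 and 159 RPKM in WT skins. Krtap20-2 was the lowest of the class, with 0, 0.0691, 0.132, 0 and 0.341 RPKM in KO tumors and 0.0304, 0.155 and 0.105 RPKM in KO skins, against 26.4, 0.396 and 8.86 RPKM in WT skins. It was also the member in which WT skin 1 most exceeded WT skin 3.

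Among high-sulfur members, Krtap7-1 was the most abundant, with 1.07, 5.08, 11.6, 1.67 and 18.4 RPKM in KO tumors and 12.9, 81.4 and 18.9 RPKM in KO skins, against 643, 20.5 and 1139.5 RPKM in WT skins. KO skin 2 stood above the library labelled WT skin 2 in it, and the other KO skins below. Krtap11-1, known in human as a protein of the hair cortex, had 2.57, 3.24, 6.92, 1.88 and 10.3 RPKM in KO tumors and 8.702, 81.2 and 22.98 RPKM in KO skins, against 534, 32.5 and 432 RPKM in WT skins. Krtap3-3, of the high-sulfur cortex subfamily Krtap3, had 1.96, 2.54, 3.17, 1.301 and 7.08 RPKM in KO tumors and 3.55, 38.4 and 15.6 RPKM in KO skins, against 309.7, 14.9 and 471 RPKM in WT skins. Krtap13-1 had 1.42, 3.15, 2.64, 0.554 and 3.97 RPKM in KO tumors and 3.66, 32.1 and 10.7 RPKM in KO skins, against 207, 7.89 and 189 RPKM in WT skins. In these 3 genes the KO skins straddled the library labelled WT skin 2, and all KO tumors lay below it. Krtap1-5 had 0.127, 3.27, 2.73, 0.397 and 7.23 RPKM in KO tumors and 1.57, 12.6 and 3.24 RPKM in KO skins, against 337, 18.5 and 486 RPKM in WT skins, with no KO library above any WT skin.

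The high-sulfur members of chromosome 16 that lie next to the Krtap19 genes stood lower in KO skins. Krtap15 had 0.0387, 4.24, 5.62, 0.149 and 6.94 RPKM in KO tumors and 0.311, 3.28 and 1.34 RPKM in KO skins, against 326, 6.62 and 468 RPKM in WT skins. Krtap14 had 0.0567, 2.395, 2.11, 0.0243 and 4.47 RPKM in KO tumors and 0.247, 2.21 and 0.164 RPKM in KO skins, against 261, 3.66 and 281 RPKM in WT skins. Krtap16-3 had 0, 0.971, 2.39, 0.0729 and 3.31 RPKM in KO tumors and 0.114, 1.01 and 0.526 RPKM in KO skins, against 149, 4.72 and 249.5 RPKM in WT skins. KO skin 1 was below 0.5 RPKM in each, no KO skin reached any WT skin, and KO tumors 2, 3 and 5 lay above KO skin 1 and KO skin 3. Krtap2-4 had 0.0478, 1.58, 1.78, 0.171 and 3.13 RPKM in KO tumors and 0.669, 2.74 and 1.23 RPKM in KO skins, against 143, 3.39 and 275 RPKM in WT skins. Krtap12-1 had 0.0241, 1.298, 1.302, 0 and 1.52 RPKM in KO tumors and 0.0968, 0.543 and 0.0837 RPKM in KO skins, against 61.99, 0.9496 and 94.7 RPKM in WT skins. Krtap26-1 had 0.0831, 1.19, 1.09, 0.0214 and 1.47 RPKM in KO tumors and 0.1002, 0.746 and 0.375 RPKM in KO skins, against 87.7, 1.13 and 68.3 RPKM in WT skins. In the last 2, KO tumors 2 and 5 exceeded the library labelled WT skin 2 and the KO skins did not.

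Other high-sulfur members stood under 1 RPKM in the library labelled WT skin 2. Of those that follow, Krtap27-1 and Krtap13 were also the lowest in WT skins 1 and 3. Krtap31-2 had under 0.0001, 0.119, 0.955, under 0.0001 and 1.099 RPKM in KO tumors and under 0.0001, 0.622 and 0.278 RPKM in KO skins, against 48.2, 0.6801 and 80.02 RPKM in WT skins. Krtap24-1, known in human as a cuticle protein, had 0, 0.2701, 0.348, 0 and 0.193 RPKM in KO tumors and 0.0207, 0.0264 and 0.0179 RPKM in KO skins, against 17.7, 0.296 and 18.1 RPKM in WT skins. Krtap27-1 had 0.0238, 0.0543, 0.05200, 0 and 0.0447 RPKM in KO tumors and 0.0957, 0.336 and 0.0827 RPKM in KO skins, against 3.602, 0.187 and 6.28 RPKM in WT skins. Krtap24-1 stood in a narrow band in KO skins, and 3 of 5 KO tumors lay above that band. Krtap13 reached at most 0.497 RPKM in any library and was the 1 member of the 54 too low to be tested.

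Among ultrahigh-sulfur members, Krtap9-3 led with 0.876, 2.02, 3.26, 0.683 and 5.99 RPKM in KO tumors and 3.798, 29.4 and 6.46 RPKM in KO skins, against 327, 28.03 and 341 RPKM in WT skins. Krtap17-1, known in human as a cuticle protein, had 5.27, 3.26, 5.25, 0.4903 and 4.58 RPKM in KO tumors and 4.11, 14.2 and 13.7 RPKM in KO skins, against 223, 25.9 and 368 RPKM in WT skins. Krtap9-3 overlapped between KO and WT skins, through KO skin 2, whereas Krtap17-1 did not. Krtap28-13 had 0.1303, 1.69, 2.402, 0.105 and 3.52 RPKM in KO tumors and 0.196, 0.502 and 0.538 RPKM in KO skins, against 165, 3.03 and 239.8 RPKM in WT skins. Krtap4-1, of the largest subfamily in the table with 8 members, had 0.124, 0.851, 1.13, 0.0662 and 2.66 RPKM in KO tumors and 0.135, 1.07 and 0.735 RPKM in KO skins, against 136, 2.71 and 223 RPKM in WT skins. The Krtap5 and Krtap10 proteins are known in human as proteins of the hair cuticle. Krtap5-5 had 0.0412, 1.27, 2.004, 0.0353 and 1.76 RPKM in KO tumors and 0.0376, 0.607 and 0.0954 RPKM in KO skins, against 65.9, 2.15 and 175 RPKM in WT skins. Krtap10-4 had 0.125, 1.42, 2.36, 0.2500 and 1.96 RPKM in KO tumors and 0.0486, 1.23 and 1.18 RPKM in KO skins, against 70.4, 2.19 and 150.1 RPKM in WT skins. In Krtap28-13, Krtap4-1, Krtap5-5 and Krtap10-4 KO skins lay below every WT skin, and KO tumor 3 lay above all KO skins.

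Tested across all genes, no member passed in KO skins against WT skins. The test was limma on log2(RPKM + 0.5) over 14233 genes that averaged 0.5 RPKM or more, with Benjamini-Hochberg adjustment and a threshold of 0.05; fold changes on this scale understate those of low genes. All 53 tested members had a lower mean log2 level in KO skins, by −2.01 to −6.32 with a median of −4.79, beside a median of 0.06 over all tested genes. The number called was 0 of 53, and 0% of all genes were called lower. At an unadjusted p under 0.05 there were 53 members, of 1229 genes in all, and the adjusted p ranged over 0.256 to 0.556. Groups did not overlap in 43 of the 53, all lower in KO skins, against 5.10% of all genes. The class medians were −3.65 for high-sulfur, −4.75 for ultrahigh-sulfur and −5.69 for glycine-tyrosine members, which are descriptions with no test between classes. Markers of the epidermis between follicles went the other way in 6 of 7 tested genes, with a median log2 difference of 1.20, 0 called and 2 at an unadjusted p under 0.05. They summed to 30901, 30195 and 29949.7 RPKM in KO skins 1 to 3, against 5237, 50537 and 5147 RPKM in WT skins 1 to 3. Their part in the Krtap difference was not tested.

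The 5 members with the smallest p did not pass either. Krtap4-8 had 0.07995, 0.06900, 0.394, 0.161 and 0.3300 RPKM in KO tumors and 0.121, 1.16 and 0.312 RPKM in KO skins, against 25.2, 2.43 and 78.96 RPKM in WT skins, and its log2 fold change in KO skins was −4.27 ± 0.90 (SE; adjusted p = 0.256, limma). For Krtap16-3 it was −5.88 ± 1.26, for Krtap6-2 −5.69 ± 1.23, for Krtap9-1 −4.17 ± 0.91 and for Krtap21-1 −5.47 ± 1.23, each at the same adjusted p. KO skins lay below all WT skins in these 5 members. The authors' deposited table gave all 54 members a ratio below 1 in this comparison, with 49 at p under 0.05, 0 at q under 0.05 and a lowest q of 0.557. For these values the share over all genes was not counted.

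The library labelled WT skin 2 decided that count. Without it, 51 of 53 members were called lower in KO skins, against 1.17% of all genes, with a median log2 fold change of −6.49. The 2 that missed were Krtap7-1 (−4.95, adjusted p = 0.0551) and Krtap8-1 (−4.92, adjusted p = 0.0575). The 2 WT skins left were both low in Xist and the 3 KO skins all high in it, so genotype and this property cannot be told apart in that fit. In the library labelled WT skin 2 the Krtap sum stood at 3.34% of the mean of WT skins 1 and 3, and Ddx3y at 3.68% of it. The epidermal sum in that library was above those of all KO skins. The part of these measures in the Krtap levels was not tested. Its 54 members lay above all KO skins in 43 cases and within the range of the KO skins in 11, namely Krtap1-3, Krtap3-1, Krtap3-2, Krtap3-3, Krtap7-1, Krtap8-1, Krtap9-3, Krtap11-1, Krtap13, Krtap13-1 and Krtap27-1. This count was not made over all genes.

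KO skins did not hold all members at 1 common fraction of the WT skin level. The KO skin mean was 0.719% of the WT skin mean for the median member, but 5% or more for 12 members, a limit chosen after the values were seen. These were Krtap13 (50.2%, at very low levels), Krtap13-1 (11.5%), Krtap11-1 (11.3%), Krtap1-4 (9.09%), Krtap3-1 (8.57%), Krtap8-1 (7.81%), Krtap3-3 (7.23%), Krtap3-2 (6.81%), Krtap7-1 (6.28%), Krtap9-3 (5.70%), Krtap17-1 (5.18%) and Krtap27-1 (5.11%, also at very low levels in KO skins). Krtap1-3 lay just outside at 4.91%, and the other 42 members had a median of 0.509%. At the low end were Krtap24-1 (0.180%), Krtap19-4 (0.195%), Krtap5-1 (0.229%) and Krtap4-6 (0.253%). By class the medians were 3.20% for high-sulfur, 0.568% for ultrahigh-sulfur and 0.412% for glycine-tyrosine members, so the 2 last classes sat low except for Krtap8-1, Krtap9-3 and Krtap17-1. KO skin 2 carried the count at that limit: without it 2 members were at 5% or more, Krtap13 and Krtap13-1 (5.35%), and the other 10 had 2.21% to 4.87%. The median over members was then 0.405%, and the class medians were 2.31%, 0.383% and 0.193% in the same order of classes. Without the library labelled WT skin 2 there were 6, and leaving out any other skin gave 12 to 14.

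Each member was also set against its mean in WT skins 1 and 3, library by library. The spread over members was wide in KO skins, where the 90th percentile was 129, 26.8 and 47.1 times the 10th. It was 1.84 times in KO tumor 5, 2.94 times in KO tumor 3, 11.6 times in KO tumor 2 and 4.49 times in the library labelled WT skin 2. In KO tumors 1 and 4 the 10th percentile was 0, so no such ratio could be formed, and the 90th percentile was 0.496% and 0.300%. In KO tumors 3 and 5 the members thus lay in a narrower band than in KO skins, around medians of 1.15% and 1.77%. The 10th and 90th percentiles were 0.646% and 1.90% in KO tumor 3 and 1.15% and 2.12% in KO tumor 5. Ddx3y stood at 69.0% of its mean in WT skins 1 and 3 in KO tumor 3, a library high in it, and at 5.15% in KO tumor 5. KO tumors 1 and 4 had medians of 0.0450% and 0.0594%.

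**Figure D3:**
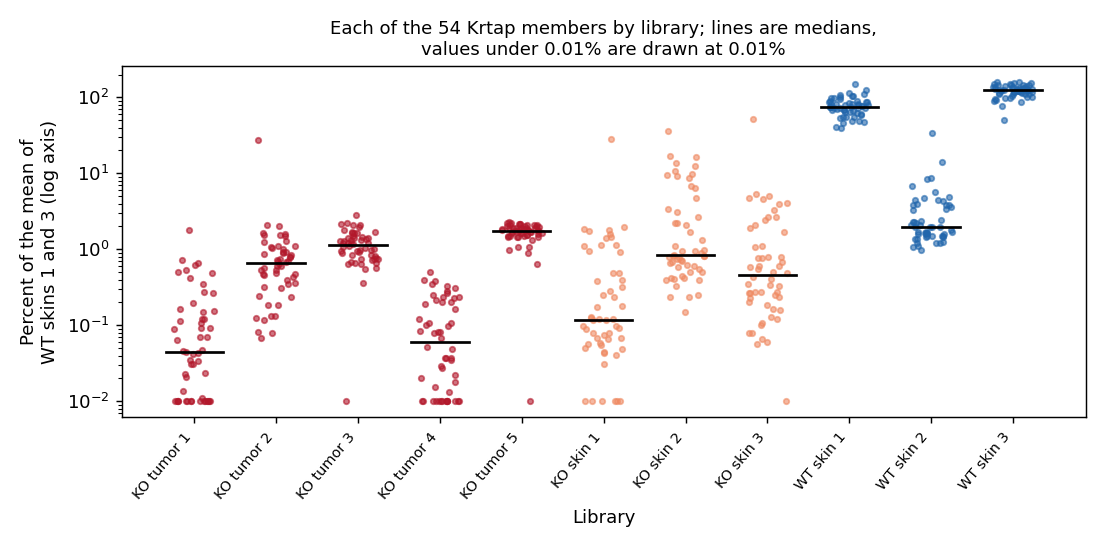
Each of the 54 Krtap members in each library as a percentage of its mean in WT skins 1 and 3 (log axis); lines are medians, and values under 0.01% are drawn at 0.01%. The points of KO tumors 3 and 5 lie closer together than those of the KO skins, near medians of 1.15% and 1.77%, apart from Krtap13 at the floor.

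Position on the chromosome went with that ranking. On chromosome 11 the first 7 members of the cluster, Krtap3-3, Krtap3-2, Krtap3-1, Krtap1-5, Krtap1-4, Krtap1-3 and Krtap9-3 (chr11:99550130-99598105), had KO skin means of 2.07% to 9.09% of the WT skin mean. Next to them Krtap2-4 had 1.10%, and the Krtap4 genes that follow ranged over 0.253% to 1.87%. Krtap17-1, at the far end (chr11:99993234-99993994), had 5.18%. On chromosome 16 the last 3 members, Krtap8-1, Krtap7-1 and Krtap11-1 (chr16:89487379-89571183), had 6.28% to 11.3%. Between these and Krtap13, the Krtap19, Krtap6, Krtap14, Krtap15, Krtap16-3, Krtap20-2 and Krtap21-1 genes stayed under 1%, and Krtap22-2 had 1.35%. Without KO skin 2 the first 7 members of chromosome 11 had 0.858% to 4.87%, the Krtap4 genes 0.179% to 1.17%, Krtap17-1 4.32% and the last 3 members of chromosome 16 2.63% to 4.76%. Neighbours are often copies of 1 subfamily, so position and sequence cannot be told apart here. TATAAA was in 9 of the 11 matched promoters of the 12 members and in 31 of 38 others, TAATTG in 5 of 11 and 9 of 38, and CTTTGAA in 3 of 11 and 6 of 38, with no test made.

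**Figure D4:**
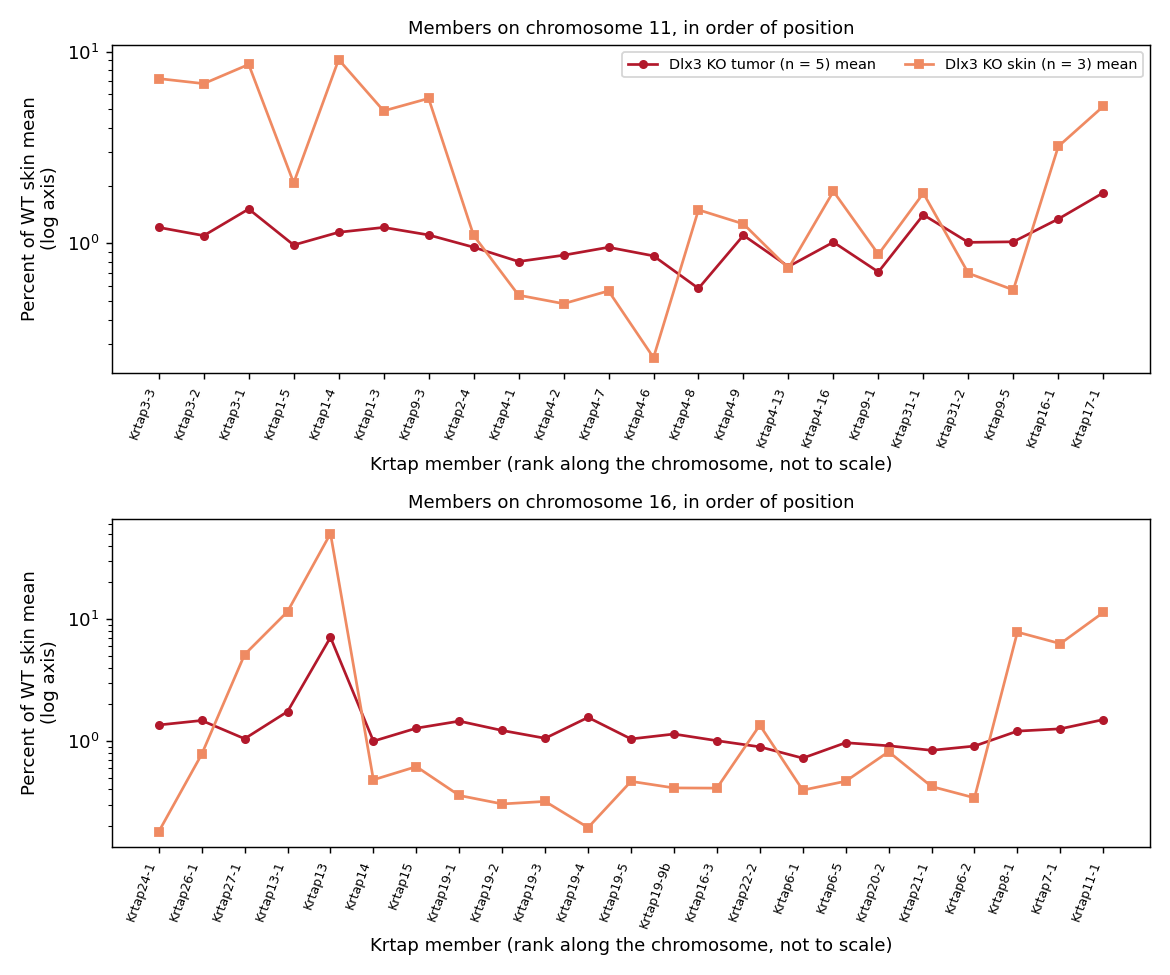
KO tumor mean and KO skin mean of each Krtap member as a percentage of its WT skin mean (log axis), with members in order of position on chromosomes 11 and 16. The KO skin line is high for Krtap3, Krtap1 and Krtap9-3 and again for Krtap17-1 on chromosome 11, and for Krtap27-1 to Krtap13 and Krtap8-1 to Krtap11-1 on chromosome 16; the KO tumor line stays near 1% apart from Krtap13.

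No member passed in KO tumors against KO skins, and the differences had both signs. The log2 fold change in KO tumors against KO skins had a median of 0.19 and a range of −2.48 to 0.82, with 22 members lower and 31 higher, beside a median of −0.23 over all genes. With limma 0 of 53 were called, whereas 6.56% of all genes were called lower, and at an unadjusted p under 0.05 there were 4 lower members and 0 higher. Over all genes, 3656 of 14233 had an unadjusted p under 0.05 in either direction, a larger share than among the members. The groups did not overlap in 1 member, Krtap27-1, which was lower in KO tumors, against 14.8% of all genes. Its values were near the floor, at 0 to 0.0543 RPKM in KO tumors and 0.0827 to 0.336 RPKM in KO skins. Median-ratio scaling of the libraries moved the all-gene median to 0.02 and that of the members to 0.37, so the members' median stood above that of all genes under both.

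The lower members with the smallest p in that comparison were Krtap1-4, Krtap11-1, Krtap3-2, Krtap3-1 and Krtap13-1. Krtap1-4 had 0.913, 0.672, 1.02, 0.494 and 2.61 RPKM in KO tumors and 2.43, 19.2 and 5.67 RPKM in KO skins, against 123, 19.6 and 157 RPKM in WT skins, with a log2 fold change of −2.23 ± 0.73 in KO tumors against KO skins (adjusted p = 0.0853, limma). KO tumor 5 slightly exceeded KO skin 1 in it. The log2 fold change was −2.48 ± 0.94 for Krtap11-1 (adjusted p = 0.128), −2.22 ± 0.96 for Krtap3-2 (0.174), −2.20 ± 0.98 for Krtap3-1 (0.185) and −2.19 ± 1.01 for Krtap13-1 (0.200). On the other side Krtap19-1 had 0.76 ± 1.04, Krtap5-5 0.81 ± 1.11, Krtap19-4 0.74 ± 1.03, Krtap5-2 0.75 ± 1.09 and Krtap28-13 0.81 ± 1.19, with adjusted p of 0.680 to 0.703. For those 5 the SE exceeded the fold change. Counted library by library, KO tumor 5 lay above all KO skins in 36 of 54 members and below all of them in 2, KO tumor 3 in 30 and 11, and KO tumor 2 in 18 and 17. KO tumors 1 and 4 lay above all KO skins in 0 members and below all of them in 43 and 41. The same counts were not made over all genes, so whether they are particular to the members was not tested.

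In KO tumors against WT skins every tested member fell. All 53 were called lower with limma, against 12.0% of all genes, and the adjusted p was at most 0.034. The log2 fold change had a median of −4.88 and a range of −6.63 to −2.32, beside a median of −0.14 over all genes. The groups did not overlap in 30 of 53, against 12.2% of all genes. Krtap1-4 had a log2 fold change of −5.60 ± 0.73 (adjusted p = 0.00042), Krtap9-3 of −5.87 ± 0.90 (0.00137) and Krtap17-1 of −5.16 ± 0.84 (0.00206). Krtap3-2 had −5.69 ± 0.96 (0.00247) and Krtap4-8 −4.71 ± 0.80 (0.00265), and the furthest fall was that of Krtap22-2, at −6.63 ± 1.41 (0.00967). The authors' deposited table gave ratios below 1 for all 54 members in this comparison, with 54 at p under 0.05 and 30 at q under 0.05. The share over all genes was not counted for the authors' values, and the 12.0% above belongs to limma.

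Genes of some other tissues of the skin were also lower in KO tumors in the same comparison. Skeletal muscle genes were called lower in 5 of 5 (median log2 fold change −7.58), melanocyte genes in 7 of 8 (−2.54) and adipocyte genes in 4 of 5 (−3.92), against the same 12.0% of all genes. Melanocyte genes summed to 10.02 to 52.1 RPKM in KO tumors, against 105 to 329 RPKM in WT skins, whereas the adipocyte sums overlapped (357 to 2993 RPKM in KO tumors, against 1533 to 2291 RPKM in WT skins). Sums also overlapped for dermal papilla, sebaceous gland, fibroblast, endothelium, macrophage and T cell genes. An overlap of sums does not show that the genes of a list were unchanged, as the adipocyte genes show. The numbers called in those lists are not given here. Dermal papilla genes summed to 92.2 to 149 RPKM in KO tumors, against 45.8 to 93.2 RPKM in WT skins. That sum was carried by Sostdc1 (means of 63.1 RPKM in KO tumors and 21.1 RPKM in WT skins), Crabp1 (34.0 and 10.05) and Inhba (7.99 and 2.07). The other genes of the list, Corin, Wif1, Fgf7, Rspo4, Sox18 and Prom1, had lower means in KO tumors than in WT skins. The part of these tissues in the Krtap levels was not tested.

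The number called was smaller without WT skin 1 or 3 and with the sequencing run in the fit. Leaving out WT skin 1 gave 22 members called and leaving out WT skin 3 gave 18. All WT skins came from the first run and 4 of 5 KO tumors from the second. With the run as an added term 2 members were called, with a median of −3.89. Within the first run alone the median was −3.68 and 0 were called, but KO tumor 5 was the only tumor there and was assumed to vary like the skins. Run and group are largely the same split of these libraries and cannot be told apart. The share of all genes called in these settings is not given here. Whether the smaller numbers are particular to the members was not tested.

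WT skins 1 and 3 themselves differed by class. WT skin 1 was lower than WT skin 3 in 46 members and higher in 8. The ratio of WT skin 1 to WT skin 3 had a median of 0.758 for glycine-tyrosine, 0.664 for high-sulfur and 0.456 for ultrahigh-sulfur members, and all 20 ultrahigh-sulfur members were lower in WT skin 1. The 5 Krtap5 genes were tightly grouped at ratios of 0.297 to 0.376. Krtap20-2, at 2.98, and Krtap22-2, at 1.63, stood at the other end. With 1 library on each side this is a description of these 2 skins.

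Other genes of the hair follicle were set beside the family. The hair cortex and cuticle keratins, which form the filaments that Krtap proteins join, had 0 of 16 genes called in KO skins against WT skins with limma, 12 of them at an unadjusted p under 0.05, with a median log2 fold change of −3.13. Between KO tumors and KO skins 6 of 16 were called, lower in KO tumors, against 6.56% of all genes, with a median of −2.45, among them Krt36 (−3.01 ± 0.49, adjusted p = 0.00363, limma) and Krt87 (−2.72 ± 0.63, 0.0274). Krt36 had 2.45, 0.691, 0.733, 0.593 and 1.02 RPKM in KO tumors and 4.36, 21.9 and 15.3 RPKM in KO skins, against 19.96, 17.8 and 40.01 RPKM in WT skins, so that KO skins and WT skins overlapped and KO tumors lay below both. In KO tumors against WT skins 16 of 16 were called lower, against 12.0% of all genes, with a median of −4.97, Krt83 with the smallest p (−6.12 ± 0.71, 0.000185).

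The inner root sheath genes, which belong to the layer around the growing shaft, had 0 of 8 called in KO skins against WT skins with limma, 8 at an unadjusted p under 0.05, with a median log2 fold change of −4.53. The comparison of KO tumors with KO skins called 0 of 8, 0 at an unadjusted p under 0.05, with a median of −0.41. That of KO tumors with WT skins called 8 of 8 lower, against 12.0% of all genes, with a median of −5.26. Krt71, a keratin of that sheath, had 0.779, 13.6, 64.5, 0.567 and 32.8 RPKM in KO tumors and 1.22, 5.86 and 3.72 RPKM in KO skins, against 1412, 23.3 and 2735 RPKM in WT skins. KO tumors 2, 3 and 5 lay above all KO skins in Krt71 and Krt25, and in Krt27 only KO tumors 3 and 5 did. In the other genes of the list, Krt26, Krt28, Krt72, Krt73 and Tchh, all KO tumors lay below KO skin 2. The other hair shaft genes, among them Padi3 and S100a3, had 0 of 6 called in KO skins against WT skins (5 at an unadjusted p under 0.05), 0 of 6 in KO tumors against KO skins (2 at an unadjusted p under 0.05) and 6 of 6 called lower in KO tumors against WT skins, beside the same 12.0%. Over all 14233 genes, that unadjusted p was reached by 1229 in KO skins against WT skins and by 3656 in KO tumors against KO skins. Of the hair matrix transcription factors 0 of 13 were called in KO skins against WT skins (3 at an unadjusted p under 0.05). Between KO tumors and KO skins 1 of 13 was called, lower in KO tumors, Prdm1 (−1.32, adjusted p = 0.0397, limma), a share near the 6.56% of all genes. In KO tumors against WT skins 7 of 13 were called lower, against 12.0% of all genes. The 13 include Dlx3 itself, the gene knocked out in DLX3cKO mice. A lower Dlx3 in KO libraries than in WT skins is part of the design and no result about the list. Hoxc13 had 11.7, 2.25, 2.104, 0.923 and 1.42 RPKM in KO tumors and 6.96, 17.7 and 20.8 RPKM in KO skins, against 31.2, 10.5 and 68.7 RPKM in WT skins. Its log2 fold change was −2.25 ± 0.72 in KO tumors against KO skins (adjusted p = 0.0823, limma) and −3.27 ± 0.72 in KO tumors against WT skins (adjusted p = 0.0114). KO skins 2 and 3 had more Hoxc13 than the library labelled WT skin 2.

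**Figure D5:**
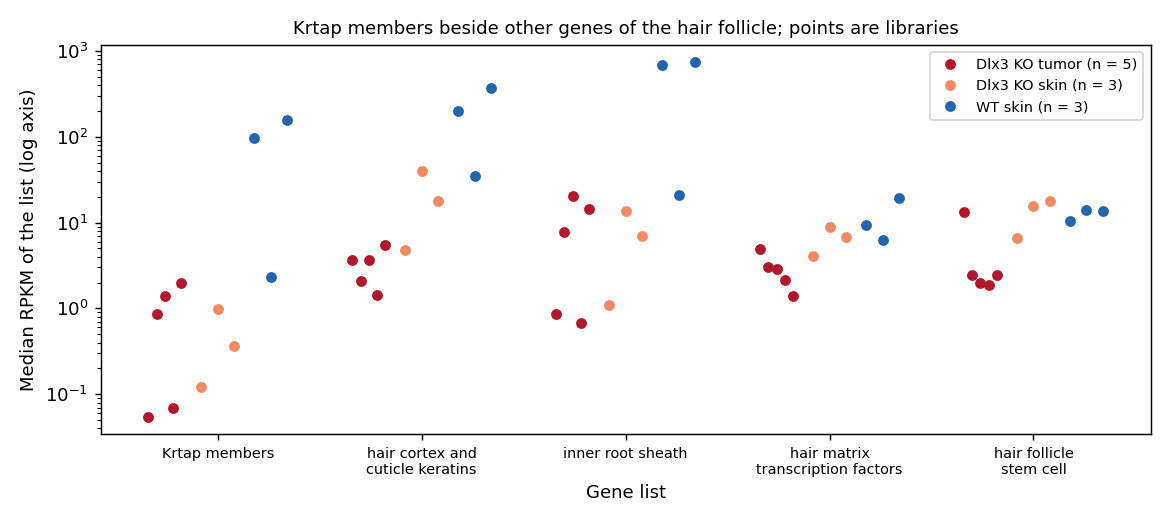
Median RPKM of the Krtap members and of 4 other hair follicle gene lists in each library (log axis), with KO tumors left of KO skins and WT skins within each list. WT skins 1 and 3 lie far above the rest for the Krtap members and the inner root sheath, and the groups lie closer for the transcription factors and the stem cell genes.

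Sequence shared between members limits how far single members can be told apart in reads of 50 bases. In the annotated transcripts 31 members shared at least 1 stretch of 50 bases with another member and 23 shared none, and the median shared part was 2.68%. It exceeded 20% in Krtap3-3 (41.3%), Krtap31-2 (40.7%), Krtap31-1 (39.1%) and Krtap3-2 (28.9%), so the levels of those 4 are uncertain within their pairs. Krtap3-2 and Krtap3-3 encode proteins of 100% identity. Exons of Krtap10-10 overlapped those of Gm2696 over 43.4% of their length and those of Krtap15 overlapped 4930553J12Rik over 19.1%, on the same strand, and 9.52% of Krtap24-1 overlapped Gm49688 on the opposite strand; how such reads were counted is not stated in those sources.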

How the data were processed

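Members and gene lists were chosen with earlier results of these data known. Reads were mapped to mm10 with TopHat and RPKM values were computed in Partek, per the file headers; the submitters' processing notes also name bcl2fastq 2.20.0.422, TopHat2 2.1.1 and Bowtie. The deposited table of the authors' comparisons holds group means of log2 RPKM, p-values and q-values from ANOVA, and the ratio of group means, per the file headers; its model terms are not given in the sources used here. The number of alignments and the sequencing run of each library came from the deposited sample sheet.

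From the deposited RPKM, log2(RPKM + 0.5) was fitted with limma 3.58.1 in R 4.3.3, with trend and robust settings, all 3 groups in 1 fit (8 residual degrees of freedom), on genes that averaged 0.5 RPKM or more, and p-values were Benjamini-Hochberg adjusted over the 14233 genes of each of 3 comparisons. The procedure was tested on simulated data. RPKM are not counts, so no count model was used and no counting interval is given; fold changes with a pseudocount understate those of low genes. Replicates carried the numbers of their titles; same-numbered libraries did not deviate together, so the numbers were not used as pairs. Named members were the most abundant of each subfamily and, per comparison and direction, the 5 with the smallest p; genes of other lists were those with the smallest p. Positions and protein compositions came from GENCODE M21 (all 54 members matched). Alternatives were another pseudocount, filter, scaling, covariate and set of libraries.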

Additional observations from a re-analysis of the deposited data

Results flagged for a closer look

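In KO tumors, 2 members had 1 library set apart from the other 4, by Dixon's ratio of the gap between the farthest library and its nearest neighbour to the range of the group. For Krtap3-2 the ratio was 0.77, with 5.97 RPKM in KO tumor 5 and 0.613 to 1.84 RPKM in the other KO tumors. For Krtap1-4 it was 0.752, with 2.61 RPKM in KO tumor 5 and 0.494 to 1.02 RPKM in the others. The limit for 5 libraries is 0.71, 39 groups of values were checked, and chance alone sets apart about 1 in 20. KO tumor 5 was also the KO tumor with the highest Krtap sum (209 RPKM), with 0.687 RPKM of Ddx3y beside 22.0 RPKM of Xist, and with 11833 RPKM of Rn45s; the part of these in the Krtap values was not tested.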

How the results depend on the processing

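In KO skins against WT skins 0 members were called under every alternative run except those without the library labelled WT skin 2: 51 without it alone and 53 without it and KO tumor 5, a pair chosen after seeing the data. Leaving out 1 library at a time gave 0 to 51 called members and medians of −6.49 to −3.59. Between KO tumors and KO skins the count was 0, with 1 (Krtap1-4) without the library labelled WT skin 2 and 4 without it and KO tumor 5; leaving out 1 library at a time gave counts of 0 to 1 and medians of −0.12 to 0.41. In KO tumors against WT skins the 53 called members became 2 with the sequencing run as an added term, 0 within the first run alone, which was chosen after seeing the data and holds 1 tumor, assumed to vary like the skins, 22 without the 2 libraries high in Rn45s, and 14 with the replicate number as a block. Leaving out 1 library at a time gave 18 to 53 called members there, and medians of −6.45 to −3.78. The cause of each change was not tested. For the settings of KO tumors against WT skins the share of all genes called is not given here. Whether those changes are particular to the members was not tested. Same-numbered libraries did not deviate together (correlations of −0.41 to 0.18 over the 3 comparisons, and 4 of 18 libraries correlated best with their own number), so the block is no paired analysis. In KO skins against WT skins, and in KO tumors against KO skins, the block left the count at 0. The members named for their small p in a comparison were followed over the alternatives. Of the combinations of member, comparison and setting, 477 kept direction and side of the threshold. In 15 a member moved past the threshold, in 8 a member moved back, and 0 reversed a direction. The number of members at 5% or more of the WT skin mean in KO skins (12) was 2 without KO skin 2, 6 without the library labelled WT skin 2 and 12 to 14 without any other skin, all chosen after seeing the data. RPKM of under about 0.5 rest on few reads and are compressed by the pseudocount.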
